A study of Mus musculus with 6 samples.

Results

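Galectins are small lectins that bind beta-galactoside sugars on glycoproteins, inside and outside the cell. S100 proteins are small calcium-binding proteins of the EF-hand type that bind annexins, ion channels, receptors and cytoskeletal proteins, and some of them act as danger signals once released. In heart muscle S100a1 is known as a regulator of the calcium release channel and the calcium pump of the sarcoplasmic reticulum. Galectin-3 is known from rodent pressure overload as a product of macrophages that acts on cardiac fibroblasts.

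The genes described here are 10 members of these families, chosen by name: the galectins Lgals1, Lgals3 and Lgals9 and the S100 genes S100a1, S100a4, S100a6, S100a8, S100a9, S100a10 and S100a11. Each had 1 row among the 24602 genes of the deposited table. Poly(A) RNA of the left ventricle was measured in 3 libraries taken 5 weeks after transverse aortic coarctation (TAC), a narrowing of the aorta that loads the ventricle with pressure. The other 3 libraries came from sham-operated mice, and all mice were wild type. No strain, age, sex or severity of the narrowing was given in the sources used here. Nothing in the labels ties a library to a mouse of its own, and the p-values therefore cover the spread among these 6 libraries, some or all of which could be technical. Total estimated counts lay between 64026540 and 69992502 in the TAC libraries and between 64023153 and 68121413 in the sham libraries. TAC replicate 3 stood apart from the other TAC libraries in several genes below. Transcripts of the mitochondrial chromosome took 22.6% to 29.2% of all counts in TAC libraries and 14.8% to 19.2% in sham libraries.

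In the mouse genome (GRCm38) all 7 S100 members lie on chromosome 3. S100a1 (90511034 to 90514392, minus strand), S100a4 (90603771 to 90606045, plus strand), S100a6, S100a8 and S100a9 (90692632 to 90695721, minus strand) form 1 stretch. S100a11 (93520488 to 93526287, plus strand) and S100a10 (93555080 to 93564643, plus strand) lie close together farther along. Lgals1 is on chromosome 15 (78926725 to 78930465), Lgals3 on chromosome 14 (47367751 to 47386160) and Lgals9 on chromosome 11 (78962974 to 78984946). The exons of the 10 genes shared 0.0% of their bases with other records of the table. A pseudogene record of Lgals1, Lgals1-ps2, held between 1 and 9 estimated counts per library, against 8910 or more for Lgals1.

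RefSeq promoter windows are shown for 3 of the 4 genes whose TAC libraries all lay above the sham libraries, so that the letters before their RefSeq starts can be compared. RefSeq promoter entries (GRCm38.p6) were found for 8 of the 10 members. Each line gives the 250 bases before the RefSeq start, read 5′ to 3′ on the gene's plus strand, from chr14:47373610-47373859, chr3:93520246-93520495 and chr3:90603520-90603769. Capitals mark matches on either strand to the AP-1 motif (TGANTCA), the GC box (GGGCGG), the M-CAT motif (CATTCC) and the TATA box (TATAAA), with no overlap between them.
Lgals3: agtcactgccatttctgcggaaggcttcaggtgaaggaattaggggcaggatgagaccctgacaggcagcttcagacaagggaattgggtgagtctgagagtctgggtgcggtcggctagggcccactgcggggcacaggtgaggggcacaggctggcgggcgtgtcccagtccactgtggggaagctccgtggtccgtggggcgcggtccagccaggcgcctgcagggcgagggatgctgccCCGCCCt
S100a11: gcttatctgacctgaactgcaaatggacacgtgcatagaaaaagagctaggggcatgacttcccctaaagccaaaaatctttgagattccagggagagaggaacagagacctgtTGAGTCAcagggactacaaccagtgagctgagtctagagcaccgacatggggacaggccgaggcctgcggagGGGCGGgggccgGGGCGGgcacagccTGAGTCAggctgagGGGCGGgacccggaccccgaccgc
S100a4: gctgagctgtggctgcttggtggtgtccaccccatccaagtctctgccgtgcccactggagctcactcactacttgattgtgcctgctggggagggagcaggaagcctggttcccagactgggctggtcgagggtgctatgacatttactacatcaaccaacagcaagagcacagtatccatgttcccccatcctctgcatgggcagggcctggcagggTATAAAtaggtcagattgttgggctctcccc
The RefSeq start of Lgals3 lies inside the gene record given above, which begins farther upstream, so its window is not upstream of the whole record. The window of S100a11 also reaches a few bases into its record. It held 2 AP-1 and 3 GC box matches. That of Lgals3 held 1 GC box match, and that of S100a4 held 1 TATA box match. Over 32817 promoter windows of this length, 6.75% held the AP-1 motif, 32.7% the GC box, 12.6% the M-CAT motif and 12.4% the TATA box. A match is a description of letters and not a measured binding site.

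The members differed in abundance by over 3 orders of magnitude on the FPKM scale, which is corrected for transcript length. S100a1 was the most abundant of them in every library, at 883, 1020.1 and 780 FPKM in TAC replicates 1, 2 and 3 and 662, 940 and 958 FPKM in the sham replicates. It made up 73.0% ± 0.715 of the summed FPKM of the members in TAC and 74.8% ± 2.74 in sham (SD, n = 3 each). Lgals1, galectin-1, came next at 188 ± 18.7 FPKM in TAC and 171 ± 32.6 FPKM in sham. Below it was S100a11 at 74.7 ± 13.2 FPKM in TAC and 54.4 ± 5.22 FPKM in sham. The ranges of these 3 genes did not touch within either group. S100a10 and Lgals9 overlapped in TAC, at 22.7 ± 3.35 and 22.2 ± 2.56 FPKM. In sham, Lgals9 (25.3 ± 5.65 FPKM) lay above S100a10 (16.9 ± 1.41 FPKM) without overlap. S100a6, S100a4 and Lgals3 were expressed at a few FPKM each. S100a6 averaged 8.57 ± 1.01 FPKM in TAC and 7.34 ± 1.66 FPKM in sham. Lgals3 and S100a4 overlapped in both groups, at 6.02 ± 2.72 and 6.02 ± 0.877 FPKM in TAC and 2.79 ± 0.629 and 3.88 ± 1.40 FPKM in sham. S100a9 and S100a8 had the lowest means, at 1.22 ± 0.104 and 0.334 ± 0.132 FPKM in TAC and 1.72 ± 2.11 and 0.450 ± 0.508 FPKM in sham. The sham ranges of S100a9 and Lgals3 overlapped, since S100a9 reached 4.07 FPKM in sham replicate 3, above Lgals3 (2.83 FPKM) and S100a4 (2.55 FPKM) there.

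**Figure D1:**
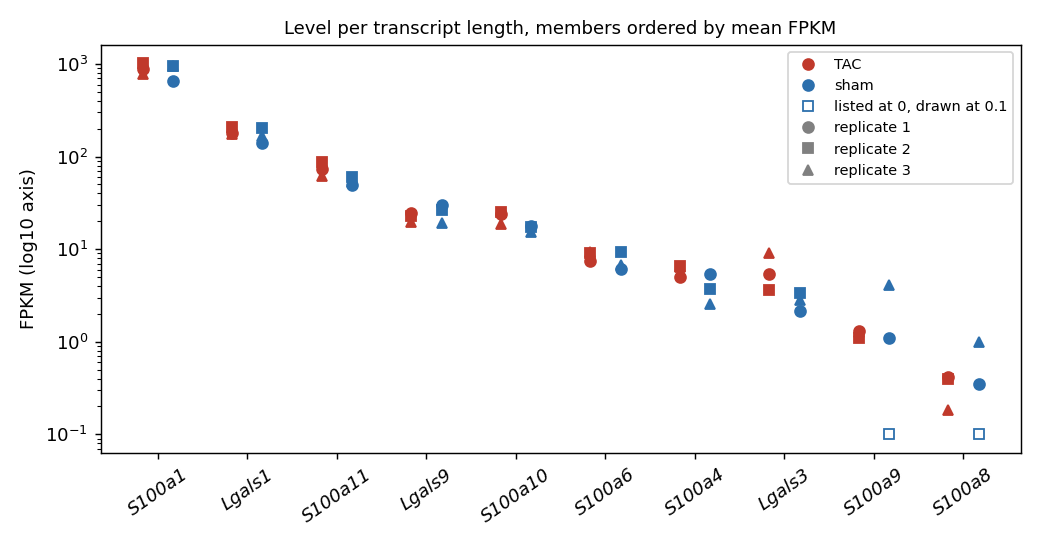
FPKM of the 10 members (log10 axis), with each TAC library (red, left) and each sham library (blue, right) as a point and the marker shape giving the replicate. S100a1 stands highest, above 662 FPKM in every library, and open squares mark the 2 genes listed at 0 in sham replicate 2, S100a8 and S100a9.

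The question was how pressure loading of the ventricle relates to the level of each of these genes. Lgals3 rose in TAC, 2.35-fold, in a call that held in 5 of the 14 alternative fits that tested it. No member was called lower. S100a4, S100a10 and S100a11 lay higher in all 3 TAC libraries than in all 3 sham libraries but did not pass the test. The abundant genes S100a1, Lgals1 and Lgals9 overlapped between the groups. Of the 10 members, 9 had a mean of at least 1 FPKM and were tested; S100a8 was not. In the quasi-likelihood test of edgeR, with a threshold of 0.05 on the p adjusted by Benjamini-Hochberg, 1 of the 9 was higher, 0 were lower and 8 did not pass; at an unadjusted p under 0.05 there were 4 higher and 0 lower, against 16.2% higher and 11.9% lower among all tested genes. Of all 8795 tested genes, 4.71% were called higher, 2.29% lower and 6.99% either way. The median log2 fold change was 0.37 over the 9 tested members and -0.01 over all tested genes. Members were chosen with earlier results of these data known, so this difference is a description. In CPM (counts scaled to a common library size by TMM), 4 of the 9 had separate groups with TAC above, against 17.7% of all tested genes. On the FPKM scale the groups of S100a4 overlapped, because sham replicate 1 (5.34 FPKM) exceeded TAC replicate 1 (5.01 FPKM). The share of all tested genes with separate groups was not taken on that scale.

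**Figure D2:**
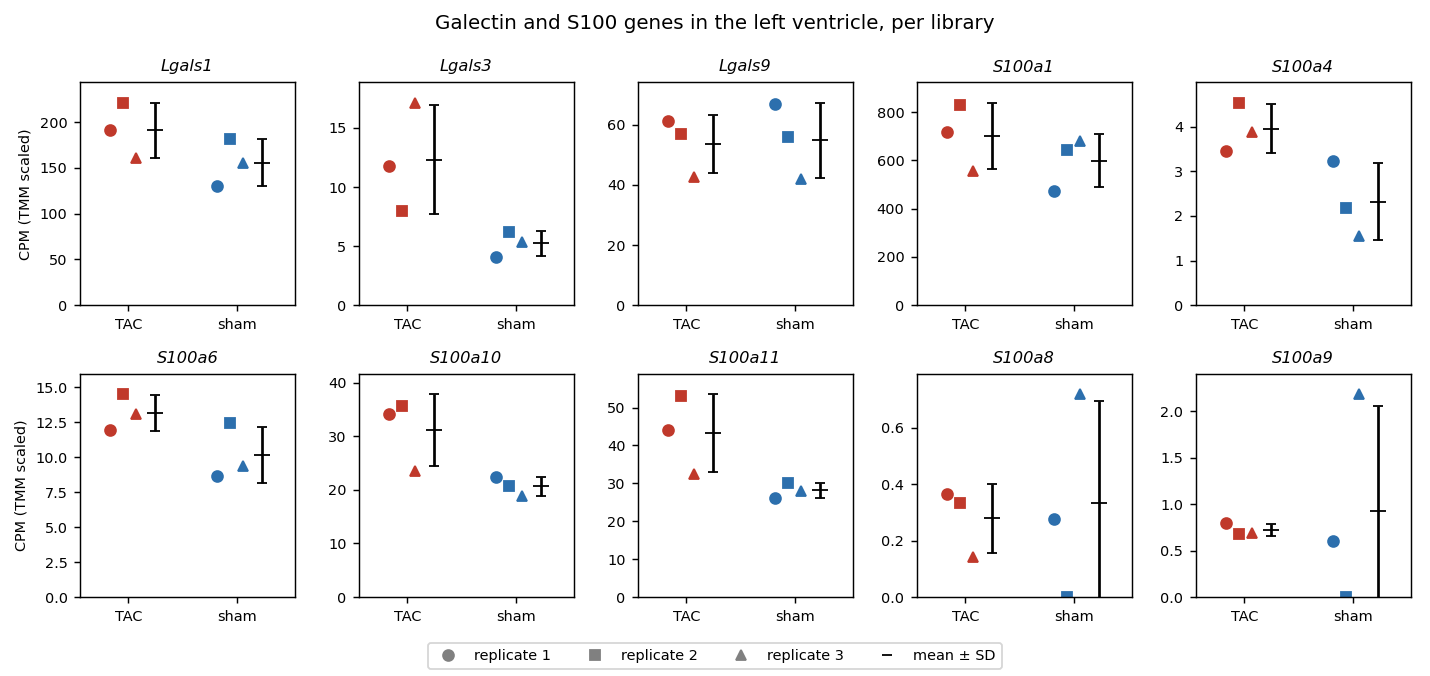
CPM of each member in TAC libraries (red, left) and sham libraries (blue, right), with the mean and SD in black (n = 3 each) and SD bars cut at 0. Lgals3, S100a4, S100a10 and S100a11 have all TAC points above all sham points, and the other 6 panels overlap.

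Lgals3 encodes galectin-3, the galectin with a collagen-like tail that lets it assemble into lattices on glycoproteins. It measured 11.8, 7.99 and 17.1 CPM in TAC replicates 1, 2 and 3, against 4.12, 6.21 and 5.39 CPM in the sham replicates. The highest value was in TAC replicate 3, and the lowest TAC library still exceeded the highest sham library. The log2 fold change was 1.23 ± 0.30 (SE; edgeR adjusted p = 0.0463), with an unadjusted 95% interval of 0.56 to 1.91. The call ended without TAC replicate 1 (adjusted p = 0.114), sham replicate 1 (0.0986), sham replicate 2 (0.138) or sham replicate 3 (0.122), and without a filter on low values (0.0809). The call also ended with GC and length trends removed (0.0543) and in limma on log2(FPKM + 1), where the log2 fold change was 0.83 and the adjusted p = 0.0788; the log2 fold change without TAC replicate 3 was 0.92 and passed. In bulk tissue, more cells of a type and more RNA per cell cannot be told apart.

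Macrophages are known as a main source of galectin-3, so their markers were read in the same fit. None of the 8 tested of 10 macrophage markers passed in edgeR, and their median log2 fold change was 0.07. At an unadjusted p under 0.05 there were 2, against 28.1% of all tested genes, and in DESeq2 2, against 18.7%. The summed level of the 10 markers was 460 to 595 CPM in TAC and 424 to 484 CPM in sham, with no marker at 0 in any library. Adgre1, the gene of the F4/80 antigen, measured 8.50, 4.44 and 16.2 CPM in TAC and 6.16, 6.45 and 5.01 CPM in sham. TAC replicate 3 was the highest library for both Lgals3 and Adgre1. TAC replicate 2 was the lowest of all 6 for Adgre1 but not for Lgals3. The same library was also lowest for the markers Csf1r, Fcgr1, Cd163 and C1qa, and not for the rest of the list. The lysozyme gene Lyz2 measured 166, 160 and 215 CPM in TAC and 128, 120 and 110 CPM in sham (adjusted p = 0.0559). The cathepsin S gene Ctss measured 6.20, 5.31 and 9.44 CPM in TAC and 3.77, 3.80 and 3.13 CPM in sham, without overlap (log2 fold change 0.97 ± 0.25, adjusted p = 0.0571). Csf1r, the receptor gene of a macrophage growth factor, had a log2 fold change of -0.24 ± 0.19, and Fcgr1, an Fc receptor gene, of -0.18 ± 0.24. C1qa, a complement gene of tissue macrophages, averaged 115 ± 8.02 CPM in TAC and 115 ± 7.78 CPM in sham. The part of macrophages in the Lgals3 result was not tested.

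Of 6826 other genes with a mean of 2 FPKM or more, Uchl1 and Gpx3 had the profiles most like that of Lgals3 over the 6 libraries. Likeness was the root mean square difference of mean-centred log2(CPM + 1) values, 0.215 for Uchl1 and 0.221 for Gpx3. Uchl1, a ubiquitin hydrolase gene, measured 21.04, 21.92 and 35.31 CPM in TAC and 10.37, 11.97 and 14.79 CPM in sham. Gpx3, a secreted glutathione peroxidase, measured 588, 632 and 931 CPM in TAC and 270, 377 and 428 CPM in sham. These genes were chosen for a profile like that of a gene that was higher in TAC, which largely fixes their direction, so their values are a description. The log2 fold change was 1.08 ± 0.24 for Uchl1 and 1.0004 ± 0.23 for Gpx3.

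Galectin-1 and galectin-9 were read in the same libraries. Lgals1, whose product is a dimer that cross-links glycans on muscle, vessel and immune cells, measured 191, 221 and 161 CPM in TAC and 130, 182 and 155 CPM in sham. The groups overlapped, with a log2 fold change of 0.30 ± 0.18 (edgeR adjusted p = 0.312; unadjusted 95% interval -0.11 to 0.70). Lgals9, a galectin with a pair of sugar-binding domains, measured 61.3, 56.9 and 42.7 CPM in TAC and 66.8, 55.9 and 41.9 CPM in sham. Its log2 fold change was -0.03 ± 0.21 (adjusted p = 0.937; interval -0.51 to 0.44). Per length, Lgals1 stood 33.3, 57.1 and 19.3 times above Lgals3 in the TAC libraries and 65.3, 60.3 and 59.4 times above it in the sham libraries.

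Other galectin genes were measured as well. Of the 18 further galectin and S100 genes listed for comparison, 13 had a row, 6 were tested and 0 passed in edgeR. At an unadjusted p under 0.05 there were 4, 2 higher and 2 lower, against 28.1% of all tested genes. There were 3 called in DESeq2, which called 18.7% of all tested genes, 1 in limma on log2(FPKM + 1) and 4 in limma voom with quality weights, which called 29.5% of all tested genes and 4 of the 9 tested members. Lgals4, a galectin known from the gut lining, measured 5.11, 5.84 and 2.38 CPM in TAC and 14.7, 7.12 and 18.8 CPM in sham. All TAC libraries lay below all sham libraries, a pattern seen in CPM in 17.1% of all tested genes. The log2 fold change of Lgals4 was -1.61 ± 0.42 (edgeR adjusted p = 0.0573). Lgals3bp, which encodes a secreted glycoprotein bound by galectin-3, measured 92.8, 78.9 and 90.3 CPM in TAC and 115, 115 and 109 CPM in sham. These groups did not overlap either, at a log2 fold change of -0.37 ± 0.13 (adjusted p = 0.101). S100a16 averaged 76.1 ± 21.7 CPM in TAC and 74.2 ± 13.8 CPM in sham. Lgals8 and the galectin-like gene Lgalsl averaged 8.49 ± 3.52 and 5.97 ± 0.854 CPM in TAC, against 4.13 ± 1.59 and 3.49 ± 1.18 CPM in sham (adjusted p of 0.105 and 0.120). Lgalsl did not overlap between the groups, whereas Lgals8 was separate in CPM by a narrow gap, at 5.95 CPM in TAC replicate 2 against 5.93 CPM in sham replicate 1, and overlapped on the FPKM scale. S100a13, which starts head to head with S100a1, averaged 17.1 ± 1.22 CPM in TAC and 12.9 ± 2.43 CPM in sham (adjusted p = 0.184).

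S100a1 is the S100 protein of striated muscle. It measured 719, 830 and 556 CPM in TAC and 475, 641 and 680 CPM in sham. The groups overlapped and the log2 fold change was 0.23 ± 0.20 (edgeR adjusted p = 0.504), with an unadjusted 95% interval of -0.23 to 0.69. Its 4 listed targets, the calcium release channel gene Ryr2, the calcium pump gene Atp2a2, the titin gene Ttn and the ATP synthase gene Atp5a1, did not pass in edgeR either, and 0 of the 4 had an unadjusted p under 0.05 or were called in DESeq2, against 1 in limma voom with quality weights. Atp5a1 averaged 4006 ± 295 CPM in TAC and 5028 ± 220 CPM in sham (log2 fold change -0.33 ± 0.15, adjusted p = 0.186), with all TAC libraries lower. Atp2a2 averaged 4036 ± 1318 CPM in TAC and 4712 ± 857 CPM in sham (adjusted p = 0.608). None of the 8 tested cardiomyocyte markers passed in edgeR, at an unadjusted p under 0.05 or in DESeq2, with a median log2 fold change of -0.10. Their summed level was 57716 CPM in TAC replicate 3, the lowest of the TAC libraries for S100a1. It was 80831 and 85719 CPM in the other TAC libraries and 81588 to 92354 CPM in sham. Most of this sum was Myh6, Mb, Actc1 and Myl2, which, like Tnni3, were lowest of all libraries in TAC replicate 3. Ryr2 (453 CPM) and Pln (1330 CPM) were highest of all libraries there, so the sum says little about these markers. Of all 6 libraries, S100a1 was lowest in sham replicate 1, where this sum was 81588 CPM. The part of cardiomyocyte content in the S100a1 values was not tested.

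S100a10 differs from the rest of the family in that it does not need calcium, and it pairs with annexin A2 at the cell membrane, where the complex binds plasminogen. It measured 34.2, 35.7 and 23.5 CPM in TAC and 22.5, 20.7 and 18.9 CPM in sham. TAC replicate 3 lay close to the highest sham library, and the groups did not overlap. The log2 fold change was 0.59 ± 0.19 (edgeR adjusted p = 0.0898). Without TAC replicate 3 it was 0.76 and passed (adjusted p = 0.0122), and it also passed in DESeq2 (0.0320), which called 18.7% of all tested genes.

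The annexin A2 gene, Anxa2, was singled out after its values were seen. It measured 151, 156 and 106 CPM in TAC and 99.9, 86.9 and 88.8 CPM in sham, with a log2 fold change of 0.58 ± 0.17 (edgeR adjusted p = 0.0724). The ratio of S100a10 to Anxa2 in CPM was 0.226, 0.229 and 0.221 in TAC and 0.225, 0.238 and 0.213 in sham. This ratio of counts, which is not corrected for length, thus averaged 0.225 ± 0.00401 in TAC and 0.225 ± 0.0126 in sham (SD, n = 3 each). Among 6826 candidate genes, Anxa2 had the profile second most like that of S100a10 (root mean square difference 0.0465), after the tetraspanin gene Tspan13 (0.0453). The plasminogen activator genes Plat and Plau, which act on the same pathway, averaged 21.1 ± 3.02 and 4.39 ± 0.537 CPM in TAC and 15.5 ± 1.49 and 2.79 ± 0.808 CPM in sham. Neither passed (adjusted p of 0.130 and 0.155).

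**Figure D3:**
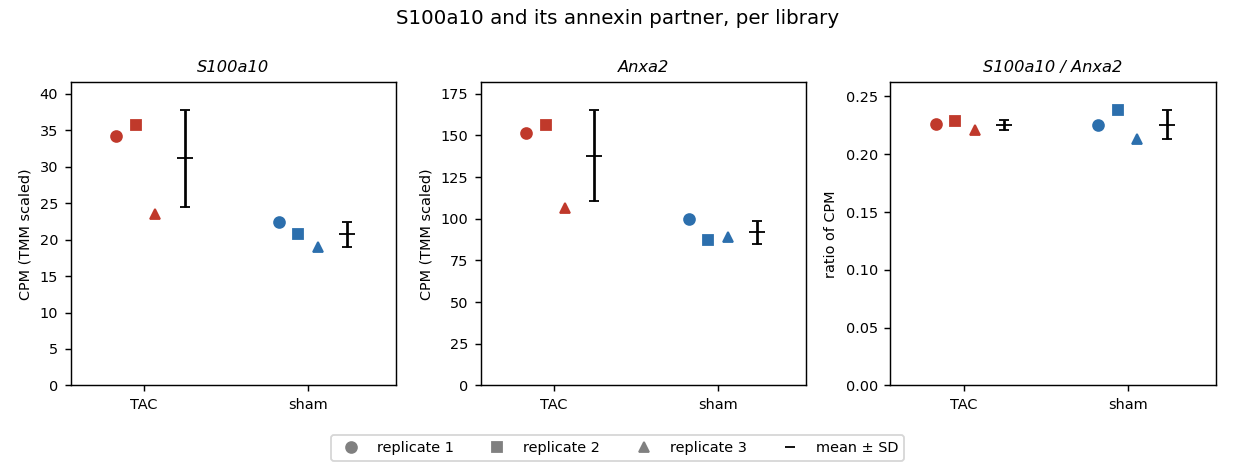
CPM of S100a10 and Anxa2 and their ratio in TAC libraries (red, left) and sham libraries (blue, right), with mean and SD (n = 3 each). Both genes lie higher in TAC, with TAC replicate 3 lowest of its group, while the ratio stays between 0.213 and 0.238 in all 6 libraries.

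S100a11, calgizzarin, binds annexin A1. It measured 44.1, 53.0 and 32.5 CPM in TAC and 26.2, 30.1 and 28.0 CPM in sham. As with S100a10, TAC replicate 3 was the lowest TAC library and the groups stayed apart. The log2 fold change was 0.62 ± 0.19 (edgeR adjusted p = 0.0791). It passed without TAC replicate 3 (0.79, adjusted p = 0.0106) and in DESeq2 (adjusted p = 0.0247). Its partner Anxa1, an anti-inflammatory annexin, rose in TAC, at 9.66, 8.94 and 9.72 CPM against 3.94, 2.21 and 3.39 CPM in sham (log2 fold change 1.57 ± 0.24, adjusted p = 0.0229). That call ended without TAC replicate 1 (adjusted p = 0.0667), sham replicate 2 (0.0778) or sham replicate 3 (0.0698). The ratio of S100a11 to Anxa1 in CPM was 4.61 ± 1.29 in TAC and 9.52 ± 3.65 in sham, so this pair did not hold the near-constant ratio of S100a10 and Anxa2. Annexin A6, a further S100-binding annexin, fell: Anxa6 averaged 259 ± 13.5 CPM in TAC and 393 ± 18.7 CPM in sham (log2 fold change -0.60 ± 0.13, adjusted p = 0.0350). The Anxa6 call held without TAC replicate 3 and ended in each of the other 5 fits without 1 library (adjusted p from 0.0659 to 0.148).

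S100a4, known in mice as fibroblast-specific protein 1 and also made by immune cells, binds nonmuscle myosin. It measured 3.45, 4.54 and 3.87 CPM in TAC and 3.24, 2.17 and 1.54 CPM in sham. The gap between the groups was narrow, at 3.45 CPM in TAC replicate 1 against 3.24 CPM in sham replicate 1. The log2 fold change was 0.77 ± 0.30 (edgeR adjusted p = 0.136). S100a6, calcyclin, measured 11.9, 14.5 and 13.1 CPM in TAC and 8.63, 12.4 and 9.39 CPM in sham, and the groups overlapped through sham replicate 2. Its log2 fold change was 0.37 ± 0.19 (adjusted p = 0.243; unadjusted 95% interval -0.06 to 0.81). Cacybp, which encodes a calcyclin-binding adaptor of a ubiquitin ligase, rose in TAC, at 13.9 ± 2.60 CPM against 5.91 ± 2.04 CPM in sham (log2 fold change 1.23 ± 0.27, adjusted p = 0.0376). Its call ended without TAC replicate 1 (0.105), TAC replicate 2 (0.0822), sham replicate 2 (0.148) or sham replicate 3 (0.118) and with GC and length trends removed, where the log2 fold change was 0.65 (0.123). The nonmuscle myosin gene Myh9 averaged 144 ± 10.6 CPM in TAC and 142 ± 36.6 CPM in sham.

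Fibroblast markers were read beside S100a4. Of 8 fibroblast markers 2 rose, Dcn and Lum, and 6 did not pass. At an unadjusted p under 0.05 in edgeR 5 were higher and 0 lower, against 16.2% and 11.9% of all tested genes. The median log2 fold change of the 8 markers was 0.82. Their summed level was 2389 to 2970 CPM in TAC and 2502 to 2595 CPM in sham. Most of that sum was Gsn, at 1915, 1918 and 1861 CPM in TAC and 2070, 2238 and 2172 CPM in sham. All TAC libraries were lower for Gsn, so the sum says little about the other markers. Of 5 tested activated fibroblast markers 4 rose, and the summed level of the 6 in the table was 162, 175 and 509 CPM in TAC and 78.4 to 86.1 CPM in sham. No gene of the first list was at 0 in any library, and 1 gene of the second list was. TAC replicate 3 carried the highest activated fibroblast sum. In CPM, S100a4, S100a6, S100a10 and S100a11 were each highest in TAC replicate 2. On the FPKM scale S100a6 was highest in TAC replicate 3, at 9.28 FPKM against 9.01 FPKM in TAC replicate 2. The part of fibroblast content in these values was not tested.

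S100a8 and S100a9 form calprotectin, the abundant cytosolic complex of neutrophils that signals through Tlr4 once released. Both were close to the limit of what these libraries show. S100a8 had 21, 21 and 10 estimated counts in TAC and 19, 0 and 47 in sham. S100a9 had 46, 43 and 49 in TAC and 41, 0 and 143 in sham. In both genes sham replicate 3 was the highest library and sham replicate 2 was listed at 0, where a count of 0 allows up to 3 counts, or 0.0423 CPM. In CPM, S100a9 averaged 0.723 ± 0.0683 in TAC and 0.927 ± 1.13 in sham. Its log2 fold change of -0.35 ± 1.03 (edgeR adjusted p = 0.860) had an unadjusted 95% interval of -2.71 to 2.002. Without sham replicate 3 the log2 fold change was 1.27 and without sham replicate 2 it was -0.94, neither past the test. S100a8 averaged 0.279 ± 0.122 CPM in TAC and 0.332 ± 0.362 CPM in sham.

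Blood cell markers were set beside calprotectin. Of the 10 neutrophil markers 7 had a row and 0 were abundant enough to test. Their sum was 3.75, 2.26 and 4.09 CPM in TAC and 2.39, 2.14 and 5.43 CPM in sham, with 5 of the 7 at 0 in at least 1 library and Ly6g, a defining marker of mouse neutrophils, at 0 in all 6. Like S100a8 and S100a9, this sum was highest in sham replicate 3 and lowest in sham replicate 2, there by a narrow gap to TAC replicate 2. Most of the sum was Csf3r in every library but sham replicate 3, with 1.64 CPM in sham replicate 2. Single markers differed in that library. Camp, Ltf and Retnlg were at 0 in sham replicate 2, and Retnlg in that library alone. Camp was also at 0 in TAC replicates 2 and 3 and sham replicate 1. Ltf was also at 0 in TAC replicate 3 and sham replicate 1. Ngp had 27 estimated counts in sham replicate 2, against 108 in sham replicate 3 and 4 to 8 in the other libraries. Of the 5 red blood cell markers 0 were called in edgeR. At an unadjusted p under 0.05 there were 3, against 28.1% of all tested genes, and in DESeq2 2, against 18.7%. The 5 markers summed to 2238, 2302 and 978 CPM in TAC and 798, 460 and 1492 CPM in sham, again with sham replicate 2 the lowest. The part of blood left in the tissue in these values was not tested. Tlr4, too low to test, measured 1.43, 2.06 and 3.35 CPM in TAC and 1.05, 0.343 and 0.824 CPM in sham, without overlap. Cd36, a scavenger and fatty acid receptor listed among calprotectin receptors, rose in TAC, at 187 ± 25.0 CPM against 80.4 ± 22.7 CPM in sham (log2 fold change 1.22 ± 0.23, adjusted p = 0.0275). That call ended without TAC replicate 1 (0.0870), sham replicate 2 (0.107) or sham replicate 3 (0.0698) and with GC and length trends removed, where the log2 fold change was 0.62 (0.0600).

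**Figure D4:**
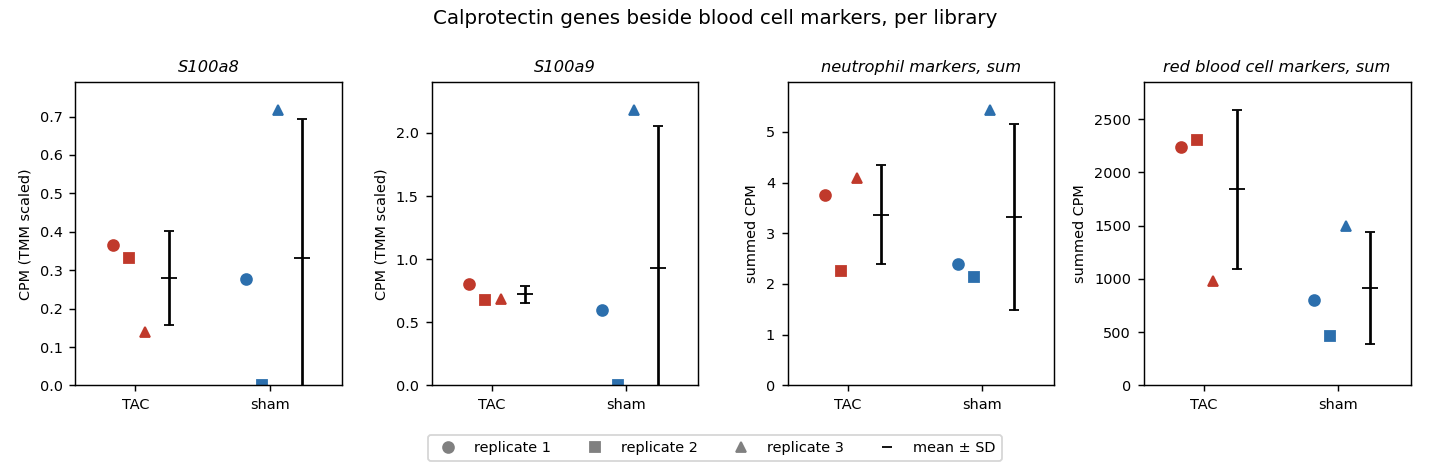
CPM of S100a8 and S100a9 and the summed CPM of neutrophil and red blood cell markers in TAC libraries (red, left) and sham libraries (blue, right), with mean and SD (n = 3 each, SD bars cut at 0). Sham replicate 3 (triangle) is highest in the first 3 panels and sham replicate 2 (square) is lowest of the sham libraries in all 4.

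Taking all 33 listed partners of the members, 23 were tested, 5 rose, 1 fell and 17 did not pass. Of all tested genes, 4.71% were called higher and 2.29% lower. The median log2 fold change of the tested partners was 0.40, against -0.01 over all tested genes. The partner list was also chosen with earlier results of these data known, so these counts and this median are a description. Besides Anxa1, Anxa6, Cd36 and Cacybp, the galectin ligands Itgb1 and Lamp2 were called. Itgb1, the beta-1 integrin gene, averaged 79.7 ± 22.8 CPM in TAC and 40.4 ± 6.48 CPM in sham (log2 fold change 0.98 ± 0.22, edgeR adjusted p = 0.0390). Lamp2, a lysosomal membrane glycoprotein gene, averaged 40.9 ± 7.66 CPM in TAC and 24.6 ± 2.46 CPM in sham (0.73 ± 0.17, adjusted p = 0.0433). Without TAC replicate 1 or without any 1 of the sham replicates both calls ended (adjusted p from 0.0561 to 0.182), and that of Lamp2 also ended without TAC replicate 2 (0.0589). With GC and length trends removed the log2 fold change of Lamp2 was 0.10 (adjusted p = 0.708), while Itgb1 still passed. Without a filter on low values the calls of Itgb1 (0.0684), Lamp2 (0.0935) and Cacybp (0.0665) ended, and at a mean of 5 FPKM or more those of Itgb1 (0.0539) and Anxa6 (0.0560) did. In limma on log2(FPKM + 1), Itgb1 (0.0764) and Lamp2 (0.124) did not pass. The related Lamp1 averaged 603 ± 107 CPM in TAC and 531 ± 20.6 CPM in sham (adjusted p = 0.502). Bsg, basigin, a receptor of S100a9, averaged 2503 ± 438 CPM in TAC and 2319 ± 278 CPM in sham (adjusted p = 0.744).

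**Figure D5:**
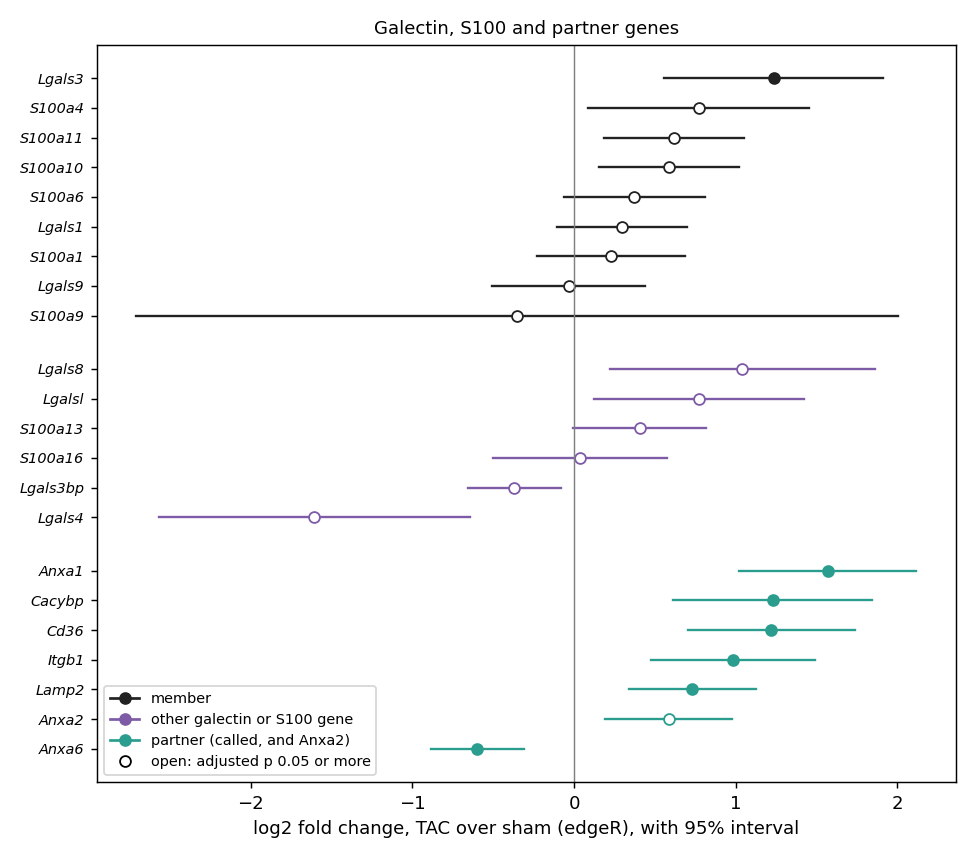
Log2 fold change of TAC over sham in edgeR with unadjusted 95% intervals, for the 9 tested members, the 6 other tested galectin and S100 genes, and the called partners with Anxa2. Filled points passed an adjusted p of 0.05: Lgals3 among the members, none of the other family genes, and 6 partners, of which Anxa6 alone lies below 0.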

How the data were processed

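Left ventricle was profiled by RNA-seq in 3 TAC and 3 sham libraries. Per the labels' protocols, poly(A) RNA was fragmented and dUTP marked the strand. The submitters' processing notes name StringTie 1.3.4d, HISAT2 2.0.4, cutadapt 1.9 and GRCm38; the annotation release, filters and strand setting were not given in the sources used here. Per the file headers, the authors deposited FPKM and, per library, estimated counts, already whole numbers, whose making is not given. Samples were grouped by title.

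The 8795 genes that averaged at least 1 FPKM were scaled by TMM and tested by glmQLFTest in edgeR 4.0.16 under R 4.3.3, with dispersions from estimateDisp, and Benjamini-Hochberg adjustment over all of them. SE is the log2 fold change over the square root of F. Alternatives were DESeq2 1.42.0, relative log expression scaling, other filters, limma 3.58.1 on log2(FPKM + 1) and log2(FPKM + 0.1), voom with quality weights, a replicate block, leaving out each library, and offsets removing lowess trends (span 0.3) over GC content and length from GENCODE M21, available for 99.8% of genes. The edgeR test was tested on simulated counts. Counts carry counting error only as a lower limit on their uncertainty.

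Named genes were all members, called family and partner genes and up to 4 abundant others per list; Anxa2, the profile likeness of S100a10, Lgals8, Lgalsl, the named marker genes, Plat, Plau, Myh9, Tlr4, Ryr2 and Ttn were added after values were seen. One further gene that the likeness rule names is not reported here. Members and lists were chosen with earlier results of these data known.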

Additional observations from a re-analysis of the deposited data

How the results depend on the processing

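Among all tested genes 615 were called (67.3% of them higher), against 1648 in DESeq2, 285 with no filter, 211 with a mean FPKM of 5 or more and 2595 in limma voom with quality weights. In limma on log2(FPKM + 1), without TMM scaling, the median of all genes shifted by -0.13 and 33.98% of 512 calls were higher (33.6% of 506 at a pseudocount of 0.1), so member differences there lie on a lowered scale. With GC and length trends removed, 53.98% of 465 calls were higher. Without 1 library the count ran from 12 (without sham replicate 2) to 1705 (without TAC replicate 3). Of the members 1 was called, against 3 in DESeq2 and 4 in voom with quality weights (Lgals3, S100a4, S100a10 and S100a11). There were 0 with no filter, with a mean FPKM of 5 or more (which left Lgals3 out), in limma at both pseudocounts and with GC and length trends removed, and 0 to 3 without 1 library. Other galectin and S100 genes numbered 0 in edgeR, 3 in DESeq2, 1 in limma at each pseudocount, 4 in voom and 0 to 2 without 1 library. DESeq2 called 18.7% of all tested genes and voom with quality weights 29.5%. Partners numbered 6, against 10 in DESeq2, 3 with no filter and 1 at a mean FPKM of 5 or more. They numbered 3 with trends removed, 12 in voom and 0 to 9 without 1 library. The cause of these shifts was not tested, also where the number of genes or samples was the change made. With the replicate block, 183 genes, 0 members, 0 other family genes and 2 partners were called, and Lgals3 had an adjusted p of 0.0707. Same-numbered libraries did not deviate together (correlations across genes of -0.18, 0.19 and -0.14), so the block is not read as a pairing.

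The direction of Lgals1, Lgals3, S100a1, S100a4, S100a6, S100a10 and S100a11 held in every alternative in which each was tested, with log2 fold changes of 0.83 to 1.47 for Lgals3, 0.40 to 0.76 for S100a10 and 0.43 to 0.79 for S100a11. Genes near 0 or near the detection limit turned: Lgals9 to 0.0397 at a mean FPKM of 5 or more and 0.17 in voom (-0.19 to 0.16 without 1 library); S100a9 to 0.0133 and 0.73 in limma, 0.53 with the replicate block and 1.75 in voom (-0.94 to 1.27 without 1 library). S100a16 turned to -0.0616 with no filter and to -0.13 and -0.14 in limma (-0.12 to 0.25 without 1 library), and Bsg to -0.0464 in limma at both pseudocounts. With no filter, S100a8 had a log2 fold change of -0.33 (edgeR adjusted p = 0.902). S100a8 and S100a9 rest on 143 counts or fewer per library; S100a9 ran from 0 to 143 counts within sham, and the cause of that spread was not tested.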
